A study of Homo sapiens with 12 samples.

Results

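On chromosomes 1 to 22, 897 stretches of 100 kb to under 500 kb lay between neighbouring nucleolus-associated regions and were called in neither naive nor primed human pluripotent cells. They were defined by the calls themselves: the deposited region lists of the 2 states were joined, and the uncalled intervals between consecutive joined regions were selected on their length. The 897 stretches are 2.06% of all 43585 uncalled intervals. Another 42679 intervals were shorter than 100 kb and 9 were 500 kb or longer. Because the calls chose the stretches, the absence of a region inside them, their length and the calls at their edges are given as descriptions. Gene content, position on the chromosome and promoter sequence were not used in the choice.

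The study sequenced DNA that pellets with nucleoli, and DNA of whole cells, from the established human embryonic stem cell line H9. RSeT medium kept the cells naive and mTeSR medium kept them primed, with no other treatment or genetic change named in the labels, and all cells were crosslinked and broken by sonication. The 12 libraries form 4 groups of 3, nucleolar and whole-cell DNA from each state, but the deposited lists hold 1 set of regions per state. On the autosomes the naive list held 58225 regions (1089 Mb) and the primed list 28558 regions (1205 Mb), on a 10 kb grid of the hg38 assembly. No value below therefore has an error across cultures, no test was made, and the read depth behind the calls is unknown.

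The nucleolus forms around the ribosomal RNA genes, and parts of many chromosomes lie against its surface. Such nucleolus-associated DNA is known to be rich in silent, late-replicating chromatin that also visits the nuclear lamina. An uncalled stretch is sequence for which a caller did not report enrichment in the nucleolar pellet, which can include sequence to which few reads can be assigned.

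The stretches hold genes of several kinds, and the start regions of 4 of these genes are shown because they span the range from many to few CG pairs. Each sequence runs 5′ to 3′ on the strand of the gene, from 250 bases before to 50 bases after the annotated start, and comes from RefSeq on GRCh38.p14. Capitals mark CG pairs, the bases that DNA methylation acts on.
L1TD1 (chr1:62194599-62194898, plus strand): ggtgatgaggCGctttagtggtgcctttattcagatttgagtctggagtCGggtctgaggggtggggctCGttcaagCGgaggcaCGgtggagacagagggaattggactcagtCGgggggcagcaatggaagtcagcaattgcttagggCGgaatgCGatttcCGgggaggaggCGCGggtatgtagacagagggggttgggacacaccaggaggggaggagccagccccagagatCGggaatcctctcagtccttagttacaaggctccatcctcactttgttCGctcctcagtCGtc
NFKB1 (chr4:102501109-102501408, plus strand): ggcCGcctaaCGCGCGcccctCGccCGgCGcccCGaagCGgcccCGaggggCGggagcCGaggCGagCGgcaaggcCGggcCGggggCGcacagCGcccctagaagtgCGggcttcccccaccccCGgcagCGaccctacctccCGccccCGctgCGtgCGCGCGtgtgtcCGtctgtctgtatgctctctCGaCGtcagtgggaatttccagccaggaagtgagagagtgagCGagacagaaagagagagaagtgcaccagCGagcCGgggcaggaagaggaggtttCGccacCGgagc
RPL15 (chr3:23916295-23916594, plus strand): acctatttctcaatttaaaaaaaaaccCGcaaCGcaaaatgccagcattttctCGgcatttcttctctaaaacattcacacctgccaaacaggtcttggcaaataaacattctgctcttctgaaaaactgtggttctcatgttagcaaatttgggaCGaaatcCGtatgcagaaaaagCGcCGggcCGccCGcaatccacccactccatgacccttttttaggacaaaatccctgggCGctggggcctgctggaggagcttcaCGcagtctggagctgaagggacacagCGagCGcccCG
CCL20 (chr2:227813592-227813891, plus strand): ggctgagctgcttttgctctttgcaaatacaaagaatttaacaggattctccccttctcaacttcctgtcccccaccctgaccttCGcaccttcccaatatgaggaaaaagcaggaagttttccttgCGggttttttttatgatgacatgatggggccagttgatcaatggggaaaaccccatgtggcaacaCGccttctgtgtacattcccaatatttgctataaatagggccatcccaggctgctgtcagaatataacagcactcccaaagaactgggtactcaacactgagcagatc
The NFKB1 start holds 35 CG pairs at 71.3% GC, those of L1TD1 and RPL15 hold 14 each at 58% and 49.3% GC, and that of CCL20 holds 3 at 46.3% GC. CCL20, a chemokine gene, is the only 1 of these 4 whose start region holds the letters TATAAA on either strand.

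The stretches also held 39 of 1793 autosomal microRNA genes (2.18%), below the 4.32% of analysed sequence that stretches make up. This comparison was not matched by chromosome, although chromosomes differ in their share of stretches. MicroRNAs are short RNAs that repress messages matching their seed. For the 37 outside the one chromosome left out of sequence printing, RefSeq gave 51 mature entries with 49 different seeds, and none for MIR12125. The only repeats are miR-4776-5p and miR-4776-3p, each listed for both MIR4776-1 and MIR4776-2. These genes share 1 position on opposite strands. A few widely studied ones, chosen after their positions were seen, are shown with the seed (bases 2 to 8) in capitals.
hsa-miR-143-3p: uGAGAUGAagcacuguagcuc
hsa-miR-145-5p: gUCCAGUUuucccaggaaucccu
hsa-miR-146a-5p: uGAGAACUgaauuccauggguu
hsa-miR-205-5p: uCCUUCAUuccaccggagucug
hsa-miR-194-5p: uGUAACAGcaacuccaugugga
hsa-miR-215-5p: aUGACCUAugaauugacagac
MIR143 and MIR145, known for their part in smooth muscle, lie together in the stretch chr5:149350001-149460000. MIR146A, a regulator of innate immune signalling, lies in chr5:160420001-160560000. MIR205, an epithelial microRNA, lies in chr1:209430001-209530000, which touches no protein-coding gene. MIR215 and MIR194-1 share chr1:220000001-220120000. Their seeds differ from each other.

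The lengths of the stretches fall off steeply. The median was 120 kb, the mean 133 kb and the longest 440 kb. Of the 897, 223 were 150 kb or longer and 74 were 200 kb or longer. The lower limit cut through a continuous distribution: 227 stretches measured exactly 100 kb, and 327 intervals just outside measured 90 kb. At the upper end the longest stretch of 440 kb was separated from the next interval of 990 kb, chr2:90410001-91400000. A coding gene was missing from 45.8% of the 100 kb stretches and from 41.3% of the 90 kb intervals.

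**Figure D1:**
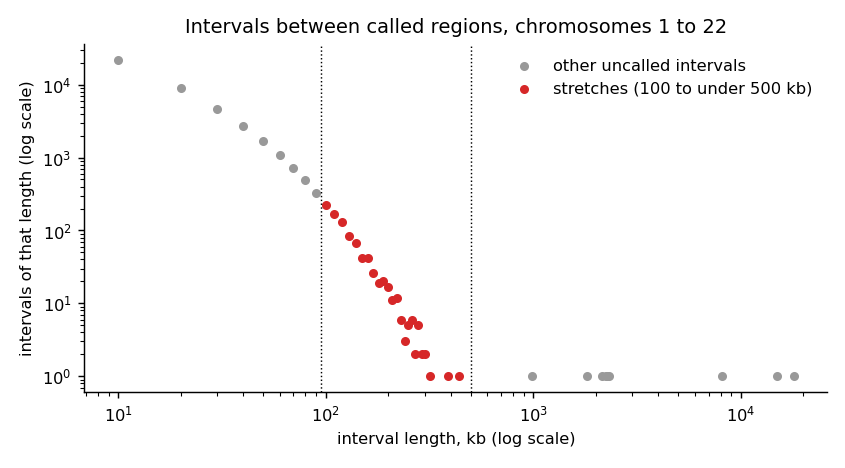
Number of uncalled intervals (log scale) of each length in kb (log scale) on chromosomes 1 to 22; red points are the stretches, grey points the other intervals, and dotted lines mark the length limits. Counts fall without a break across 100 kb, from 327 intervals of 90 kb to 227 of 100 kb, and no interval lies between 440 and 990 kb.

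The stretches covered 119.1 Mb, 4.32% of the 2756 Mb of autosomal sequence between each chromosome's first and last region, less the 9 longest uncalled intervals. That is 11.5% of the 1038 Mb left uncalled in intervals under 500 kb. They were concentrated on the larger chromosomes. Chromosomes 1 to 7 hold 49.7% of the analysed sequence and 735 stretches, 81.9% of all. Chromosome 4 had the largest share of its sequence in stretches, 9.89% in 142 stretches, followed by chromosome 2 with 8% in 142 and chromosome 3 with 7.66% in 113. Chromosomes 13 to 22, with 26% of the sequence, held 28 stretches, and chromosomes 20 and 22 held none.

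Over the 22 chromosomes, the share of sequence in stretches and chromosome size had a Spearman rank correlation of 0.86. With coding genes per Mb the Pearson correlation was -0.37 and the Spearman correlation -0.46. The points share the 2 region lists, so these are descriptions. Part of the pattern is set by the choice itself, since uncalled intervals are rare where calls cover nearly everything: primed regions covered 97.4% of chromosome 19, 94.6% of chromosome 20 and 91.4% of chromosome 22, against 18.9% of chromosome 4. Chromosome 21 did not follow this order. Primed regions covered 92.1% of it and naive regions 69.2%, yet 9 stretches made up 3.92% of its sequence. Other chromosomes departed from the order as well. Primed regions covered 32.8% of chromosome 13 and 39.4% of chromosome 1, yet stretches made up 1.09% of the former and 6.45% of the latter.

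**Figure D2:**
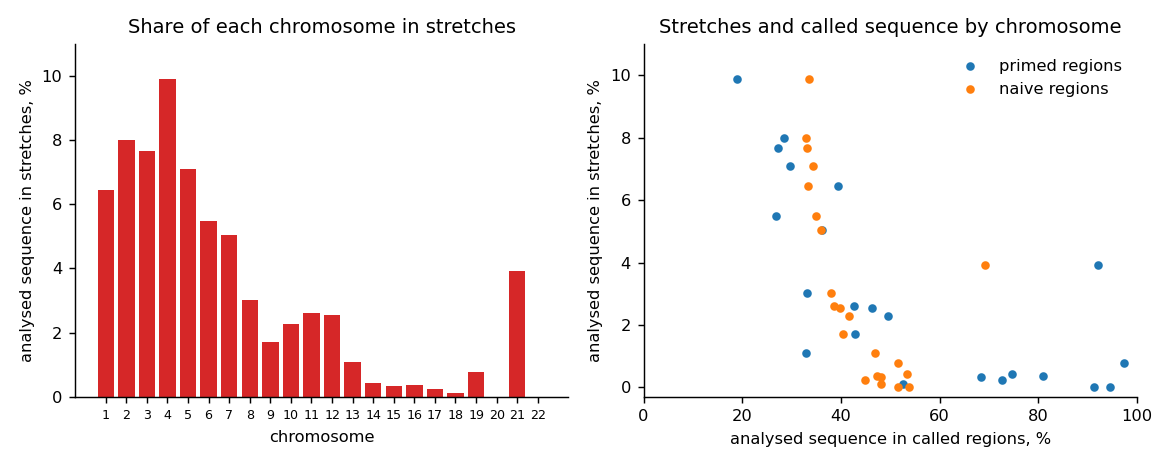
Left, percent of each chromosome's analysed sequence in stretches; right, the same percent against the percent in primed (blue) and naive (orange) regions, 1 point per chromosome and list. Chromosome 4 is highest at 9.89%, chromosomes 20 and 22 are at 0, and chromosome 21 stands apart at 3.92% with 92.1% of its sequence in primed regions.

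Along the chromosomes, the stretches were sparse near the ends. Within 2 Mb of a chromosome end lay 3 stretches (0.334%), against 2.81% of the analysed sequence. Within 5 Mb lay 15 (1.67%, against 7.06% of the sequence) and within 10 Mb 65 (7.25%, against 14.3%). The 3 nearest the ends form a row on the short arm of chromosome 3, from chr3:1510001-1610000 to chr3:1870001-1980000, and none of these touches a coding gene. The median distance to the nearest end was 38.4 Mb for stretches and 34.7 Mb for all analysed sequence. The sequence shares and this median are over all autosomes and were not matched to the stretches' own chromosomes. Chromosomes 1 to 7 hold 81.9% of stretches against 49.7% of the sequence, and larger chromosomes have more sequence far from an end. The 2 medians therefore do not show whether stretches lie farther from the ends than other sequence of their own chromosomes.

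Some stretches had another stretch close by, and no expected spacing was computed for comparison. The median separation of neighbours was 560 kb over 877 neighbouring pairs. In 143 pairs the separation was 100 kb or less, and in 43 of them 1 called bin of 10 kb was all that divided the stretches. Linking stretches at most 100 kb apart gave 113 rows with 256 members, of which 21 rows had 3 or more. The rows, windows, small RNAs and genes divided over several stretches that are named here were chosen after their values were seen.

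The row chr4:144770001-145850000 had 5 stretches with 0.89 Mb uncalled in 1.08 Mb. It contains SMAD1, which transmits BMP signals, ABCE1, which recycles ribosomes, ANAPC10, a subunit of the anaphase-promoting complex, the deubiquitinase gene OTUD4 and MMAA, needed for vitamin B12 use. SMAD1 (78.4 kb) and OTUD4 (46.9 kb) lie wholly inside a stretch, and 94.6% of ABCE1 does. The only other row of 5, chr8:98850001-99650000, contains OSR2, a transcription factor gene, with parts of the kinase gene STK3 and of VPS13B, a lipid transfer gene mutated in Cohen syndrome.

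In windows of 5 Mb the stretches were uneven too. Of 587 windows, 352 held none, and 54 windows held 50% of all stretch sequence. The fullest was chr4:165000001-170000000, where 12 stretches covered 32.4%, and the next was chr2:195000001-200000000, where 11 covered 31.8%. The first contains PALLD, an actin-bundling gene, and SPOCK3. The second contains the ubiquitin ligase gene HECW2. The window chr21:5000001-10000000, on the short arm of chromosome 21, held 8 stretches covering 29%. None of the 9 stretches of chromosome 21 touches a coding gene.

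The sequence next to the stretches differed between the lists. Of the 1794 called bins that border a stretch, 1496 (83.4%) were in a naive region only, 201 (11.2%) in a primed region only and 97 (5.41%) in both. For the intervals under 100 kb, these shares were 58%, 27.3% and 14.8%. Looking at the naive list alone, the uncalled interval around a stretch had a median of 130 kb and never exceeded 440 kb, and for 713 stretches it was the stretch itself. In the primed list alone it had a median of 810 kb, reached 8300 kb, and was 1 Mb or longer for 406 stretches. From 100 to 500 kb away, 32.5% of bins were in naive and 8.05% in primed regions. Many stretches thus lay in long tracts without primed regions, divided by naive regions. These values come from the calls that defined the stretches and carry no test.

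The gene content was measured with RefSeq genes on GRCh38.p14, and a gene was counted as touching a stretch when any base of its body overlapped it. Of the 897 stretches, 336 (37.5%, Clopper-Pearson 95% interval 34.3% to 40.7%) touched no coding gene, 339 touched 1, 143 touched 2, 62 touched 3 and 17 touched 4 or more. The interval covers counting error only and treats stretches as independent, which neighbours in a row are not. A gene of another kind, such as a long non-coding RNA or a pseudogene, was present in 246 of the 336, and 90 stretches touched no annotated gene of any kind. A whole coding gene lay in 184 stretches, and 125 stretches lay entirely within 1 coding gene. No matching shares for same-length sequence elsewhere on the autosomes are given here, so these values cannot be read as high or low.

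From the genes' side, 829 of 18969 autosomal coding genes (4.37%) touched a stretch, and 276 (1.46%) lay wholly inside one. Of genes of every kind, 1465 of 56076 (2.61%) lay wholly inside. The genes that touch a stretch were long, with a median of 77.8 kb against 24.8 kb for all coding genes, while those wholly inside had a median of 19.4 kb.

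Gene starts, taken here as the lower coordinate of each coding gene, were fewer in stretches than elsewhere. There were 536 starts in the stretches, 4.5 per Mb, against 6.99 per Mb in the rest of the analysed sequence. The ratio was 0.64 (95% interval 0.59 to 0.70, from counts alone). Since chromosomes differ in gene density and in their number of stretches, the density of each stretch's own chromosome was also used: it gives 713 starts in the same length of sequence, and the ratio to it was 0.75. Of the 13 chromosomes with 10 or more stretches, 12 had fewer starts per Mb inside than outside. Chromosome 1 had the widest gap of the 13, with 4.5 inside and 9.17 outside. Chromosome 7 was the exception, with 6.11 inside and 5.86 outside. Chromosome 3, at 5.14 and 5.39, and chromosome 10, at 5.25 and 5.48, were nearly level.

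**Figure D3:**
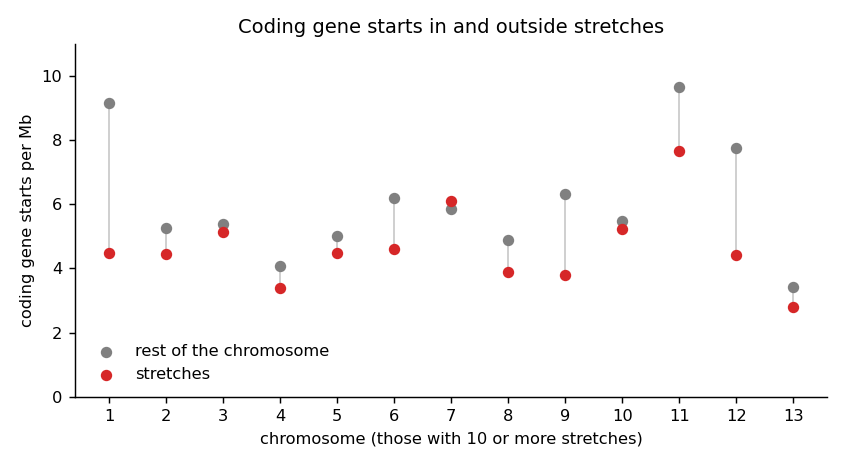
Coding gene starts per Mb in stretches (red) and in the rest of the same chromosome (grey) for the 13 chromosomes with 10 or more stretches. The red point is lower on 12 chromosomes and higher on chromosome 7, at 6.11 against 5.86.

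The bodies of coding genes covered 37.9% of the stretches and 43.3% of the rest of the same chromosomes, weighted by stretch sequence. Inside coverage was lower on 11 of the 13 chromosomes, chromosome 7 (50.3% against 46.2%) and chromosome 12 (53.8% against 47.3%) being the others. The surroundings resembled the stretches in gene starts more than the chromosome as a whole did. Within 100 kb beyond the edge there were 4.8 starts per Mb, and from 100 to 500 kb there were 4.39, close to the 4.5 inside. The nearer flank includes the called bin that borders each stretch, and these bins held 5.57 starts per Mb. Gene bodies covered 42.9% and 44.7% of these flanks, above the 37.9% inside.

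**Figure D4:**
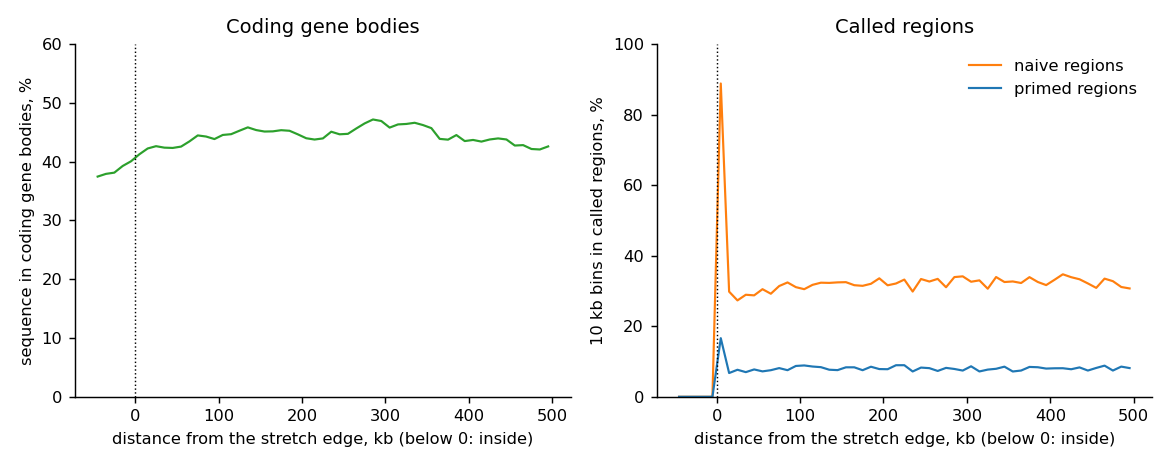
Left, percent of sequence in coding gene bodies against distance in kb from the stretch edge (negative inside, positive outside, other stretches left out); right, percent of 10 kb bins in naive (orange) and primed (blue) regions. Gene body coverage is 37.4% at 50 kb inside and 41.2% in the first bin outside, while the peak at the edge on the right is fixed by the way stretches were defined.

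Gene content varied with the length of the interval, without a steady order in gene starts. Coding gene starts per Mb were 5.75 in intervals of 10 kb, 4.62 in those of 20 to 40 kb and 4.27 in those of 50 to 90 kb. They were 4.48 in stretches of 100 to 140 kb, 4.99 in those of 150 to 190 kb and 3.94 in those of 200 kb or longer. Gene body cover mostly fell with length. Gene bodies covered 46.7% of the 10 kb intervals, 43.2% of those of 20 to 40 kb and 39.5% of those of 50 to 90 kb. They covered 39.2% of the stretches of 100 to 140 kb, 39.3% of those of 150 to 190 kb and 30.2% of the longest. Intervals of 50 to 90 kb, just below the limit, thus had nearly the cover of the shorter stretches. The longest class includes the gene-free stretches described next.

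The longest stretches were of different kinds. As 5 stretches of 280 kb tie for the last places among the 10 longest, all 5 are given, together with the 7 that were longer. The 3 longest without any annotated gene were chr19:24450001-24890000 (440 kb, the longest of all), chr6:59830001-60220000 (390 kb) and chr9:67920001-68220000 (300 kb). The first lies 20 kb from the uncalled interval chr19:24910001-27240000 on the same chromosome. Whether reads can be assigned to these sequences was not tested, as the genome sequence was not used here. The stretches chr21:5400001-5680000 and chr21:5690001-5970000 (280 kb each) touched 3 and 2 genes, none of them coding.

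The others of this length touched coding genes. The stretch chr12:99460001-99780000 (320 kb) lies in ANKS1B, a gene of brain synapses, and holds the short gene GARIN6. The stretch chr4:102330001-102630000 (300 kb) holds all 115.9 kb of NFKB1, a subunit of the transcription factor NF-kappa-B, with 15.5 kb of the metal transporter gene SLC39A8. The stretch chr2:186790001-187080000 (290 kb) holds ZSWIM2 (21.7 kb). The stretch chr1:199840001-200120000 (280 kb) holds 92.3 kb, 61.7%, of NR5A2, an orphan nuclear receptor gene active in early embryos and in the liver. The stretch chr1:236840001-237120000 (280 kb) holds 64 kb of MTR, which encodes methionine synthase, the metallothionein-like gene MT1HL1 and one end of RYR2, the calcium release channel of heart muscle. The stretch chr3:188760001-189040000 (280 kb) holds one end of LPP, a cell adhesion gene, and 42.8 kb of TPRG1.

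The stretch chr2:227570001-227860000 (290 kb) touched 9 coding genes, as many as any. They are 7 SCYGR genes (SCYGR2 to SCYGR8), a tandem family, with SLC19A3, a thiamine transporter gene of 34.3 kb, and CCL20, a chemokine gene of 3.72 kb whose start is shown above. The stretch chr5:17510001-17610000 also touched 9, all copies of 1 family (TAF11L3 to TAF11L11). Reads from near-identical copies are placed uncertainly, and whether that bears on the missing calls here was not tested.

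Gene-dense stretches with single-copy genes came next. The stretch chr3:169730001-169960000 (230 kb) touched 6 coding genes, and ACTRT3, MYNN, LRRC34, LRRIQ4, LRRC31 and SAMD7 all lie wholly inside. MYNN encodes a zinc finger protein and SAMD7 a photoreceptor repressor. The same stretch holds TERC, the telomerase RNA gene (chr3:169764610-169765060), and TRV-AAC1-1, a valine tRNA gene. The stretch chr3:9650001-9790000 (140 kb) touched MTMR14, CPNE9, BRPF1, OGG1, CAMK1 and TADA3. CPNE9 (26.1 kb), BRPF1, a chromatin reader gene (16.3 kb), and the kinase gene CAMK1 (12.6 kb) lie wholly inside. OGG1, which removes oxidised guanine from DNA, lies 97.4% inside, and TADA3, a subunit of histone acetylase complexes, 76.9%. The stretch chr7:135050001-135260000 (210 kb) touched AGBL3, CYREN, TMEM140, WDR91 and STRA8. STRA8, which acts at entry into meiosis, and CYREN, a regulator of DNA end joining, lie wholly inside.

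Large single genes filled other stretches. The longest coding gene wholly inside a stretch was P3H2, a collagen prolyl hydroxylase gene of 165.6 kb, in chr3:189940001-190130000. HACE1, a ubiquitin ligase gene (131.8 kb), takes up most of chr6:104710001-104880000. DROSHA, which makes the first cut in microRNA precursors (131.6 kb), lies in chr5:31400001-31540000. VIT (118.1 kb), C4orf51 (112.3 kb), the growth factor gene FGF1 (105.9 kb), the metalloprotease gene ADAM19 (98.5 kb), CCDC150 (93.1 kb) and ORC4 (91.2 kb) follow, with NFKB1 among them. FGF1 lies in chr5:142580001-142700000 and ADAM19 in chr5:157380001-157580000.

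The share of genes touching a stretch was larger for longer genes, which have more sequence that a stretch can meet. Of coding genes under 10 kb, 1.91% touched a stretch; of those of 10 to 50 kb 3%, of those of 50 to 100 kb 5.05%, of those of 100 to 500 kb 10.1%, and of the 303 genes of 500 kb or more 64 (21.1%). The share of gene body sequence inside stretches, which does not grow with length by itself, was 1.59% for the shortest class and 4.41% for the longest. The first lies below the 4.32% of sequence that stretches make up, and the last close to it. No gene of 500 kb or more lay wholly inside.

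**Figure D5:**
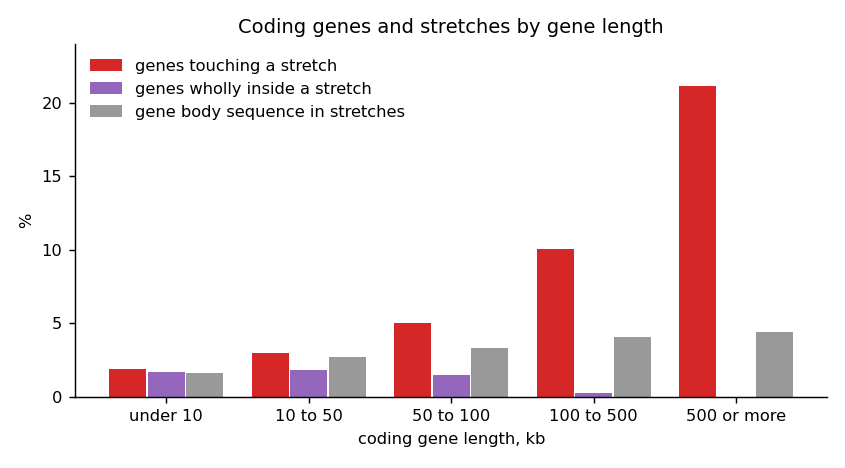
Percent of coding genes touching a stretch (red), percent wholly inside one (purple) and percent of their body sequence in stretches (grey), by gene length in kb. The red bars go from 1.91% to 21.1%, and the grey bars from 1.59% to 4.41%.

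Of the touching genes, 57 met 2 or more stretches and 8 met 3 or more. VPS13B met 4, with 460 kb (53.2%) of its body inside. TENM2, a teneurin gene of neuronal connection, met 4 with 365.1 kb (28.4%). RGS7, a regulator of G protein signalling, met 3 with 452.5 kb, and 77.7% of its body lay inside. ARHGAP15 (58%), MCC (63.6%), LPP (48.9%), RPS6KC1 (45.4%) and STPG2 (33.3%) also met 3. ANKS1B met 2 with 434.9 kb (34.8%). Of ST7, 89.2% lay inside its pair of stretches. These genes are broken by called regions of 10 kb or more between their stretches.

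Where the strand was known from the promoter table, 472 genes were partly inside a stretch, and the transcription start of 206 of these (43.6%) was inside. Among 55 such genes of 500 kb or more, 18 had their start inside. For the 112 stretches that lie within 1 gene of known strand, the middle of the stretch lay at a median of 49.7% of the gene's length from its start. The first part of the gene, divided in 3 equal parts, held 26 of them, the middle 54 and the last 32, and a long stretch can only lie near the middle of a gene not much longer than itself.

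Promoters of genes wholly inside stretches were compared with all coding promoters by their letters. Of 269 genes, 242 had an entry (90%), and 15098 of 18263 did over the autosomes (82.7%), with chromosome 8 left out in both. The median GC content was 57% in stretches and 62.7% over all. The ratio of observed to expected CG pairs had a median of 0.65 in stretches and 0.77 over all, and reached 0.6 in 56.6% against 66.1%. On chromosomes 1 to 7 alone, the medians were 57% against 62% for GC and 0.63 against 0.76 for the ratio. Of promoters in stretches, 9.09% held TATAAA, 34.3% held CCAAT and 52.1% held GGGCGG, each searched on both strands. Over all promoters these shares were 9.83%, 36.1% and 58.7%. No motif contains another, and a match is a description of the sequence, not a binding site. No test was made of these differences.

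The lists of pluripotency genes gave too few members to set apart from the 4.37% of all coding genes that touched a stretch. Of 10 genes shared by both states, L1TD1 alone touched a stretch. L1TD1, an RNA-binding gene derived from a LINE-1 element and highly active in pluripotent cells, lies wholly inside chr1:62090001-62350000 (260 kb), together with KANK4 (83.3 kb) and one end of the cell polarity gene PATJ. Its left neighbour was a naive region and its right neighbour a primed region. None of 24 naive-state genes, 21 primed-state genes or 20 single-copy genes of the 8-cell stage touched a stretch. The genes of these lists are short, with medians of 9.02 to 14.7 kb, and coding genes under 10 kb touched in 1.91%.

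Among chromatin and genome maintenance genes, counts within the lists used were near the background. Of 33 Polycomb genes, PHC3 (41.7 kb inside) and RNF2 (4.44 kb), which encodes the ubiquitin ligase of the complex, touched a stretch. Of 25 genes for silencing of LINE-1 elements and TRIM28 targets, DNMT3A, a DNA methyltransferase gene, touched one with 22.1 kb (19.3%). Of 37 replication genes, ORC4, a subunit of the origin recognition complex, lay wholly inside chr2:147910001-148050000. Of 37 listed DNA repair genes, BARD1 (64.7% inside) and MRE11 (45.9%) touched. The list does not hold every repair gene. OGG1 (97.4% inside), NEIL3 (wholly inside) and RAD18 (72.8%) are outside it and also touched a stretch. Repair genes outside the list were not counted. Of 21 cohesin, condensin, CTCF and lamina genes, LMNB1 touched, with 88.4% of its body in chr5:126690001-126830000; it encodes a lamin, the protein meshwork of the nuclear edge. None of 39 genes of nucleolar structure and RNA polymerase I, none of 38 proteasome genes and none of 39 HOX genes touched.

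Ribosomal protein genes touched a stretch in 4 of 82 cases (4.88%), near the 4.37% of all coding genes. They are short, however, with a median of 5.025 kb, and coding genes under 10 kb touched in 1.91%. The count is small and the difference was not tested. RPL15, RPS3A and RPS12, short genes of 8.09, 5.02 and 3 kb, lay wholly inside, and RPS7 had 16.3% inside. RPL15 lies in chr3:23820001-23960000, RPS3A in chr4:150970001-151120000 and RPS12 in chr6:132660001-132820000. The last of these also holds the vanin genes VNN1 and VNN2. Small nucleolar RNA genes, whose products guide the modification of ribosomal RNA, came with them: SNORD73A and SNORD73B with RPS3A, and SNORD100, SNORD101 and SNORA33 with RPS12. Of 77 mitochondrial ribosomal protein genes, MRPL13 (90.8% inside) and MRPS28 (54%) touched, which is 2.6%. Their median length is 8.62 kb, so the 1.91% of coding genes under 10 kb is the closer comparison.

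The large clustered families were nearly missing. Of 542 C2H2 zinc finger genes, ZNF639 (15.7 kb, wholly inside) and ZNF827 (51% inside) touched a stretch, 0.369%. Of 388 olfactory receptor genes, OR6V1 alone did (0.258%), in chr7:143030001-143150000. None of 69 replication-dependent histone genes did. Many of these genes lie on chromosomes with few stretches, so chromosomes 1 to 12, which hold 869 stretches, were also taken alone. There 6.53% of 12534 coding genes touched a stretch, against 0.995% of 201 zinc finger genes and 0.311% of 322 olfactory receptor genes. Olfactory receptor genes and histone genes are short, with medians of 3.04 and 0.494 kb, and coding genes under 10 kb touched in 1.91% over all autosomes. The 69 histone genes are too few to set apart from that share. Zinc finger genes had a median of 23.4 kb, near the 24.8 kb of all coding genes. Members of a cluster share their surroundings and are not independent, and no test was made. The families of duplicated blocks had 4 of 295 touching, namely RGPD6, TRIM49, SPDYE17 and SPDYE18. These copies are alike in sequence, so their placement is uncertain.

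The lists of long neuronal genes touched stretches more often than the 4.37% of all coding genes. Of 66 neuronal adhesion genes, 5 (7.58%) touched. Among them, CNTNAP2 (2304 kb) had 150 kb inside, CNTN4 250 kb, TENM2 365.1 kb and TENM3 53 kb. Of 81 neurotransmitter receptor genes, 8 (9.88%) touched. They include the glutamate receptor genes GRIK2 (120 kb inside), GRM8 (112.9 kb), GRM7 (108.9 kb) and GRIA2 (19.9 kb), the muscarinic receptor genes CHRM3 (185.4 kb) and CHRM2 (1.35 kb), and the glycine receptor gene GLRB (42.1 kb). Of 63 voltage-gated channel genes, 5 (7.94%) touched, among them the potassium channel genes KCNH1 (184.1 kb), KCNH7 (58.6 kb) and KCNG3 (51.7 kb) and the muscle calcium channel gene CACNA1S (30.5 kb). None of the members of these lists lay wholly inside. The median lengths of the lists, 314.1, 60.8 and 101.6 kb, exceed the 24.8 kb of all coding genes. Coding genes of 100 to 500 kb, the class of the adhesion and channel medians, touched in 10.1%. Those of 50 to 100 kb, the class of the receptor median, touched in 5.05%. On chromosomes 1 to 12 alone, the shares of the lists were 11.6%, 12.7% and 10.9%, against 6.53% of all coding genes there. Whether gene length accounts for these shares was not tested.

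Among genes of other kinds, length hardly limits whether small ones lie wholly inside. Their chromosomes still matter, since stretches made up 9.89% of chromosome 4 and 0% of chromosomes 20 and 22. The shares below were not matched by chromosome. Pseudogenes lay wholly inside in 570 of 14160 cases (4.03%), near the 4.32% of sequence. Small nucleolar RNA genes did so in 34 of 1144 (2.97%), microRNA genes in 39 of 1793 (2.18%) and transfer RNA genes in 3 of 425 (0.706%). Coding genes under 10 kb did so in 1.7%. Long non-coding RNA genes lay wholly inside in 513 of 17525 cases (2.93%). None of 29 annotated ribosomal RNA genes lay in a stretch. SNORD45A, SNORD45B and SNORD45C, hosted by RABGGTB, lay together in the row chr1:75390001-76060000.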

How the data were processed

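The deposited data, per the labels, are 1 list of nucleolus-associated regions per cell state, each tied to 6 libraries, with chromosome, start and end only. The submitters' processing notes name BWA, SAMtools 1.10 and SICER without roles. Calling settings and the way 3 replicates became 1 list were not given in the sources used here.

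The lists were joined on chromosomes 1 to 22, and intervals of at least 100 kb and under 500 kb between consecutive regions were kept. Bins of 10 kb were used. Genes, promoters and microRNAs came from RefSeq tables on GRCh38.p14; 789 genes on scaffolds were left out. Values are counts, medians and shares, with exact 95% binomial intervals and no test. The interval code was checked on simulated regions. Tools were Python 3.11.15, numpy 2.4.6, pandas 2.3.3, scipy 1.17.1 and matplotlib 3.10.9.

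The members, the gene lists and the alternatives were chosen with earlier results of these data known. Named were the 10 longest stretches, the 5 touching the most coding genes, the 3 longest without a gene, and those at the length limits. Named genes were the coding genes of these, the 10 longest coding genes wholly inside a stretch, and list members inside a stretch (up to 6 for lists over 40 genes). List members only partly inside, rows, windows, small RNAs and other genes were named after their values were seen. Sequences of chromosome 8 were left out of the promoter and microRNA comparisons. Some list members that touch a stretch are not reported here.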

Additional observations from a re-analysis of the deposited data

How the results depend on the processing

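The 5 main results were recomputed with each choice changed alone. Only the ratio of gene starts has a direction, and it stayed below 1, between 0.45 and 0.98. The other results are counts or shares, which have no direction to reverse. With a shortest length of 150 kb there were 223 stretches on 1.53% of the sequence, 117 whole coding genes, and 31.4% of stretches without a coding gene. With no upper limit the share of sequence was 6.12% and the ratio of coding gene starts 0.45. With regions of 1 bin left out of both lists there were 3696 stretches (26.3% of the sequence), 1951 whole genes, 34% without a coding gene and a ratio of 0.56. The naive list alone gave 1839 stretches (8.82%), 987 whole genes, 28.7% and a ratio of 0.98; the primed list alone gave 2249 (19.2%), 1227, 31.4% and 0.47. Leaving out stretches without any gene gave 3.9% of the sequence, 30.5% and 0.72, and adding chromosome X gave 4.12% of the sequence. Counting genes at least 50% inside gave 471, and any overlap 829; with 50% required, 65.8% of stretches had no coding gene. The cause of these shifts was not tested, beyond the fewer or longer intervals that each choice makes by construction. The ratio of gene starts was thus near 1 for the naive list alone and below that of the joined lists for the primed list alone. Single 10 kb calls, whose reliability is unknown without scores or depth, decide how many stretches exist. No paired analysis was possible because each state has 1 list and no test was made.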
